A study of Homo sapiens with 9 samples.

Results

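The proteasome subunit genes were taken as the protein-coding genes of GENCODE version 44 (GRCh38) whose names start with PSMA, PSMB, PSMC, PSMD, PSME, PSMF or PSMG followed by a digit. The names matched 50 of 20046 protein-coding genes. Of these, 48 encode subunits, activators, an inhibitor or assembly chaperones of the proteasome. The other 2, PSMC3IP and PSME3IP1, are named for proteins that bind a subunit or an activator and are not parts of the proteasome.

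The binding of RNA polymerase II, through its catalytic subunit POLR2A, was mapped in the human embryonic kidney line HEK293T. Chromatin was precipitated with an antibody to POLR2A and its DNA was sequenced (ChIP-seq). The groups were cells with a control shRNA, labelled wildtype, cells with knockdown of the splicing factor U2AF1, and cells in which the helicase DHX9 was knocked down. Per condition there were 2 ChIP samples, 1 input sample and 1 list of polymerase peaks. How far either protein was reduced is not measured by these lists.

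The proteasome degrades proteins that carry ubiquitin. Its core particle is a barrel of alpha and beta rings with the cutting sites inside, and its regulatory particle binds ubiquitin chains, unfolds the substrate with a ring of ATPases and removes the ubiquitin at its lid. Separate chaperones assemble each part, and other proteins cap or inhibit the core. The standard subunits are needed in dividing cells of all kinds, while a few members are forms of the immune system, the thymus or the testis. RNA polymerase II often pauses just after the start of a gene, which is one source of narrow POLR2A signal there.

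A gene was counted as having a peak when a peak summit, the position of highest signal, lay within 1000 bp of any annotated transcript start of that gene. There were 2757 peaks for the control, 1730 for U2AF1 knockdown and 4443 for DHX9 knockdown. Names of the control peaks read as replicate 1, and it is not known whether any list rests on 1 or on both ChIP samples. With 1 list per condition no value has a replicate error, and no difference between conditions was tested. Library depth is unknown from the lists, and the calling of weak peaks depends on it. A gene without a peak was therefore taken as below what that list called, and not as free of polymerase.

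Sequence upstream of the start is shown for 6 members that stand for the main patterns. PSMB2 and PSMG1 had a peak in every list, PSMA4 in the control and DHX9 knockdown lists, and PSMA5, PSMC4 and PSMD8 in the DHX9 knockdown list alone. The sequences are from RefSeq (GRCh38.p14), run 5′ to 3′ along the strand of the gene and end at its RefSeq start or, for PSMG1 and PSMD8, shortly before it. Only bases outside annotated exons are given. Peaks overlapped the printed bases in every list that had one for PSMB2, PSMA4 and PSMC4, and in the control and DHX9 knockdown lists for PSMG1. At PSMA5 and PSMD8 the peak lay wholly downstream of them. The sequences lie on chromosome 1 from 35641527 to 35641776 (PSMB2, minus strand), on chromosome 21 from 39183489 to 39183701 (PSMG1, minus strand) and on chromosome 15 from 78540155 to 78540404 (PSMA4, plus strand). The others lie on chromosome 1 from 109426449 to 109426698 (PSMA5, minus strand), and on chromosome 19 from 39970915 to 39971164 (PSMC4, plus strand) and from 38374321 to 38374562 (PSMD8, plus strand). Capitals mark matches to any of 7 short motifs, which are spelled out with their frequencies after the peaks.
PSMB2: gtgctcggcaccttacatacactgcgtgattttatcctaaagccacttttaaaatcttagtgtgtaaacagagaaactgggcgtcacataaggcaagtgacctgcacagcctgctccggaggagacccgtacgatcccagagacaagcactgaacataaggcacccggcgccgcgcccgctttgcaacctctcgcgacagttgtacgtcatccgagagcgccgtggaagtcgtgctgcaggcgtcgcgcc
PSMG1: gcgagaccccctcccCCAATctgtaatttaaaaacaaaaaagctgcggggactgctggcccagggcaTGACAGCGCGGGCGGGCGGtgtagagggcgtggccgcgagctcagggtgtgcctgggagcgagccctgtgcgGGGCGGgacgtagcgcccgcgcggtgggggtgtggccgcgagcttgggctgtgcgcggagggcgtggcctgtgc
PSMA4: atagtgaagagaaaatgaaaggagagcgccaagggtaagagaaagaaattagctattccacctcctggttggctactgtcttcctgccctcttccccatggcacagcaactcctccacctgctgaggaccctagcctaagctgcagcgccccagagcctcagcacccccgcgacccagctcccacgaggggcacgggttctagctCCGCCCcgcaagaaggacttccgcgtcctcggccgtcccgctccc
PSMA5: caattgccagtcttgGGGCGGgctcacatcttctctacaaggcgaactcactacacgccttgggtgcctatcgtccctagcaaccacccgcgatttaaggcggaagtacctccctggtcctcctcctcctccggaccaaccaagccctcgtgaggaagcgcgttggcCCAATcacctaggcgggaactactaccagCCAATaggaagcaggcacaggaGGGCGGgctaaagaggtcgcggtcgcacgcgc
PSMC4: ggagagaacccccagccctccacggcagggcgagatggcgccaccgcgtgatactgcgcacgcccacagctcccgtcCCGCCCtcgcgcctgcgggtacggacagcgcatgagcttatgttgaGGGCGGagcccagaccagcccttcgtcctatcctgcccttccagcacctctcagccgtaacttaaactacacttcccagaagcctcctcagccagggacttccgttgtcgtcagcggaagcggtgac
PSMD8: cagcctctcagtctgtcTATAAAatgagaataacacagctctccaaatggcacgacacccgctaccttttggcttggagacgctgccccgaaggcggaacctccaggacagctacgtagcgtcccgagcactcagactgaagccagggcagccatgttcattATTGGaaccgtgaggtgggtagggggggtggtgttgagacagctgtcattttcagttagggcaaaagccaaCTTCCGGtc

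Proteasome genes had a peak in 11 of 50 cases in the control list (22.0%), in 5 of 50 after U2AF1 knockdown (10.0%) and in 16 of 50 after DHX9 knockdown (32%). Over all protein-coding genes the shares were 12.6%, 6.64% and 21.0% in the same order. The lists differed in length, and the number of genes with a peak moved with it. Relative to the control list, 0.455 times as many proteasome genes had a peak in the U2AF1 knockdown list and 1.45 times as many in the DHX9 knockdown list. For all protein-coding genes these ratios were 0.527 and 1.66.

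Each proteasome gene with a peak had a single one in a list. No member had a summit in its gene body farther than 1000 bp from a start, in any list. Across the 3 lists, 18 members had a peak somewhere and 32 (64.0%) in none, against 75.1% of all protein-coding genes in none.

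**Figure D1:**
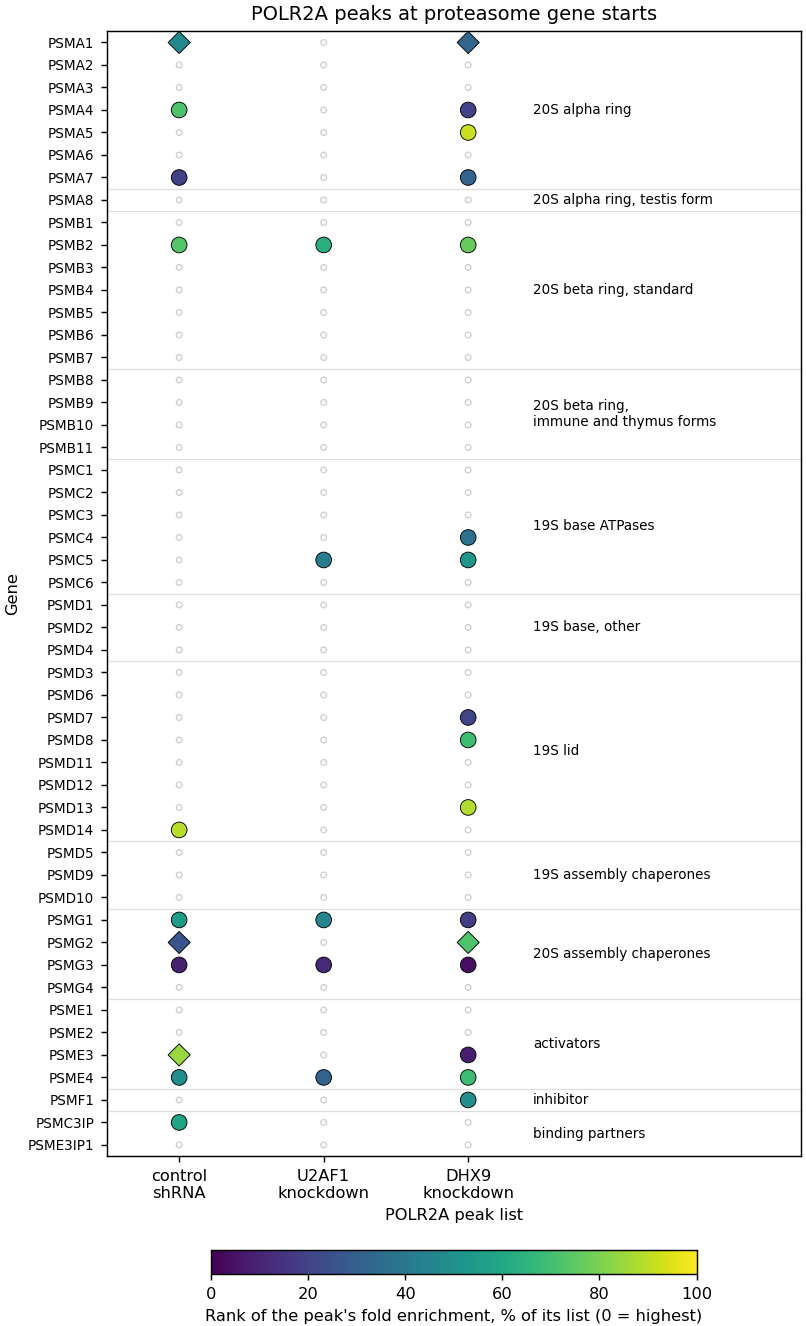
Each of the 50 genes (rows, grouped by role) is shown in each POLR2A peak list (columns). A filled symbol is a peak with its summit within 1000 bp of a start, coloured by the rank of its fold enrichment as a percentage of the list (0 is the highest), a diamond is a peak over 1000 bp from the canonical start, and a small open circle is no peak. PSMB2, PSME4, PSMG1 and PSMG3 are filled in all 3 lists, and the beta ring is empty apart from PSMB2.

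PSMB2, PSME4, PSMG1 and PSMG3 had a peak in all 3 lists (8.0% of members, against 4.03% of all protein-coding genes). PSMA1, PSMA4, PSMA7, PSME3 and PSMG2 had one in the control and DHX9 knockdown lists (10.0% of members, against 5.49%). PSMC5 was the only member with a peak in both knockdown lists and none in the control list (2.0%, against 1.38%). PSMD14 and PSMC3IP had a peak in the control list alone (4.0%, against 2.66%). PSMA5, PSMC4, PSMD7, PSMD8, PSMD13 and PSMF1 had a peak in the DHX9 knockdown list alone (12.0% of members, against 10.1% of all protein-coding genes).

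In the alpha ring, which gates entry to the core, 3 of 7 standard members had a control peak, 0 had a U2AF1 knockdown peak and 4 had a DHX9 knockdown peak. The shares over all protein-coding genes were 12.6%, 6.64% and 21.0%, so with 7 genes a count of 0 after U2AF1 knockdown says little. At canonical starts alone, which leaves out PSMA1, 2 had a control peak and 3 a DHX9 knockdown peak. PSMA7 had a control peak on chromosome 20 from 62143127 to 62143431, at rank 523 of 2757 and 5.50-fold enriched. Its DHX9 knockdown peak, from 62143139 to 62143473, was at rank 1418 of 4443 and 6.01-fold enriched. The summits lay 68 and 106 bp from its start, and 443 and 481 bp from the start of SS18L1 on the other strand. Fold enrichment is the authors' value for each peak and depends on the depth and background of its own list, so only its rank within a list is read here. PSMA4 ranked 1973 in the control list, with a fold enrichment of 3.497, and 870 in the DHX9 knockdown list, with 6.89. The peaks were on chromosome 15 from 78540199 to 78540446 and from 78540230 to 78540666. Its control summit lay at -86 bp from the nearest start and its DHX9 knockdown summit at -4 bp, both upstream. PSMA5 had only a DHX9 knockdown peak, on chromosome 1 from 109426170 to 109426392, of rank 4069 and fold enrichment 3.60. That was the lowest rank of any member in that list, and its −log10 q of 3.09 was also the lowest. The summit was 228 bp downstream of the canonical start and -88 bp from an alternative one. PSMA2, PSMA3 and PSMA6, and the testis form PSMA8, had no peak in any list.

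PSMA1 needs a separate reading. Its peaks, from 14643568 to 14643909 on chromosome 11 in the control list and from 14643372 to 14644031 in the DHX9 knockdown list, lay far upstream of its canonical start, the start of the annotation's representative transcript. They ranked 1294 of 2757 and 1466 of 4443, and were 4.22-fold and 5.98-fold enriched. The summits were -123219 bp and -123352 bp from that start. They were near the start of a long alternative transcript, and 199 bp and 66 bp from the start of PDE3B, a phosphodiesterase gene on the other strand. A peak between such starts cannot be given to 1 gene.

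The beta ring holds the cutting sites, formed by PSMB5, PSMB6 and PSMB7 in the standard proteasome. None of these 3 genes had a peak in any list, nor had PSMB1, PSMB3 or PSMB4, and PSMB2 was the only 1 of 7 standard members with a peak. The share in no list was thus 85.7%, near the 75.1% of all protein-coding genes for a set of 7. PSMB2 had a peak in every list, with a fold enrichment of 3.45 in the control, 4.26 after U2AF1 knockdown and 4.39 after DHX9 knockdown. Its ranks were 2013 of 2757, 1097 of 1730 and 3392 of 4443, in the lower part of each list. The −log10 q was 5.88, 3.96 and 3.23, so among peaks of 5 or more PSMB2 stayed in the control list alone. The peaks lay on chromosome 1 from 35641400 to 35641708, from 35641391 to 35641674 and from 35641456 to 35641715. The summits fell at -65, -25 and -53 bp from its start, inside the printed sequence. The 4 immune and thymus forms, PSMB8, PSMB9, PSMB10 and PSMB11, had no peak in any list.

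Regulatory particle genes differed between the lists in which members had a peak. A peak was found at 1 of 17 in the control (5.88%), at 1 of 17 after U2AF1 knockdown and at 5 of 17 after DHX9 knockdown (29.4%). Core particle genes had a peak in 4 of 19 cases (21.1%), 1 of 19 (5.26%) and 5 of 19 (26.3%). The shares over all protein-coding genes were 12.6%, 6.64% and 21.0%. The regulatory particle member of the control list, PSMD14, the deubiquitinating enzyme of the lid, was in neither knockdown list. Its peak, on chromosome 2 from 161308155 to 161308586, ranked 2464 of 2757, with a fold enrichment of 2.71 and a −log10 q of 2.57, the lowest of the control members. All 5 regulatory particle genes of the DHX9 knockdown list lacked a control peak, whereas 4 of its 5 core particle genes had one. PSMA1, whose peaks cannot be given to it alone, is among those 4, and at canonical starts it left both lists. Of all protein-coding genes with a DHX9 knockdown peak, 54.6% lacked a control peak. With 1 to 5 genes in each of these counts, a single gene moves a share by over 5 percentage points.

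Among the ATPases of the base, PSMC5 had a U2AF1 knockdown peak on chromosome 17 from 63827472 to 63827676 and a DHX9 knockdown peak from 63827466 to 63827671. Fold enrichment was 5.03 with rank 728 of 1730, and 5.19 with rank 2341 of 4443. The edges of the 2 peaks differed by at most 6 bp. FTSJ3, a gene for ribosomal RNA processing, starts on the other strand, and the summits lay 114 bp and 79 bp from its start and 9 bp and 44 bp from that of PSMC5. PSMC4 had a DHX9 knockdown peak on chromosome 19 from 39970793 to 39971028, of rank 1688 and fold enrichment 5.78. Its summit was -265 bp from the start, the farthest of any member peak. No peak was found at PSMC1, PSMC2, PSMC3 or PSMC6, or at PSMD1, PSMD2 and PSMD4, the scaffold and ubiquitin receptor genes of the base.

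In the lid, PSMD7 had the strongest DHX9 knockdown peak of the regulatory particle, on chromosome 16 from 74296750 to 74297093, at rank 890 of 4443 and 6.80-fold enriched. PSMD8 had a peak on chromosome 19 from 38374705 to 38374961, at rank 3039 and 4.64-fold enriched. The peak of PSMD13, on chromosome 11 from 236874 to 237123, was at rank 3919 and 3.81-fold enriched, with a −log10 q of 3.47. The summits lay 67, 33 and 9 bp downstream of the nearest start. At PSMD13 the summit was also 116 bp from the start of SIRT3, a mitochondrial deacetylase gene. PSMD3, PSMD6, PSMD11 and PSMD12 had no peak in any list.

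The highest peaks of the family stood at an assembly chaperone of the core. PSMG3, which with PSMG4 helps to build the alpha ring, ranked 239 of 2757 in the control, 192 of 1730 after U2AF1 knockdown and 162 of 4443 after DHX9 knockdown. That was the highest rank of any member in each list. Fold enrichment was 6.77, 7.28 and 10.7, and −log10 q was 18.9, 11.6 and 21.0. The peaks were on chromosome 7 from 1569729 to 1570298, from 1569833 to 1570167 and from 1569778 to 1570181, with summits 111, 123 and 79 bp downstream of the start. A long noncoding RNA gene, PSMG3-AS1, starts 152, 164 and 120 bp from these summits. PSMG4 itself had no peak in any list.

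PSMG1, the partner of PSMG2 in another chaperone pair, had fold enrichments of 3.98, 4.85 and 7.04 in the order control, U2AF1 and DHX9. It ranked 1512 of 2757, 803 of 1730 and 797 of 4443. Its DHX9 knockdown peak, from 39182999 to 39183640 on chromosome 21, was 642 bp wide, and its U2AF1 knockdown peak, from 39183136 to 39183422, was 287 bp wide. The control peak ran from 39183247 to 39183682. PSMG2 had a control peak on chromosome 18 from 12658060 to 12658404, of rank 730 and fold enrichment 5.02. Its DHX9 knockdown peak, from 12658087 to 12658313, had rank 3210, fold enrichment 4.48 and a −log10 q of 3.12. Both lay far upstream of its canonical start, at -44768 and -44910 bp, by starts of alternative transcripts. The start of SPIRE1, an actin nucleation gene on the other strand, was 167 bp and 25 bp away. The chaperones of the regulatory particle among the members, PSMD5, PSMD9 and PSMD10, had no peak in any list.

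Of the activators, PSME4, a large cap that acts without ubiquitin, had a peak in every list. Fold enrichment was 4.16, 5.46 and 4.62, with ranks 1355 of 2757, 554 of 1730 and 3064 of 4443. The peaks lay on chromosome 2 from 53970938 to 53971346 in the control, from 53970921 to 53971160 after U2AF1 knockdown and from 53970898 to 53971144 after DHX9 knockdown. The control summit lay at -165 bp, on the side of the neighbour ACYP2 and 45 bp from its start, while the knockdown summits lay 24 and 42 bp downstream of the PSME4 start. The control summit was 189 bp from that of the U2AF1 knockdown list and 207 bp from that of the DHX9 knockdown list, and those 2 were 18 bp apart.

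PSME3, the activator of the nucleus, was counted in the control and DHX9 knockdown lists at different places. The control peak, on chromosome 17 from 42824097 to 42824353, had rank 2336, a fold enrichment of 2.99 and a −log10 q of 2.91. It lay at -9167 bp from the canonical start and 21 bp from a start of BECN1, an autophagy gene. The DHX9 knockdown peak, from 42833208 to 42833643, stood at rank 375 of 4443 and was 8.33-fold enriched, the second highest of the family. Its summit was 102 bp downstream of the canonical start, 3 bp from another start of PSME3 and 149 bp from one of BECN1. The 2 summits were 9269 bp apart and the peaks shared no base. PSME1 and PSME2, the interferon-induced activator pair, had no peak in any list. PSMF1, an inhibitor of the core, had only a DHX9 knockdown peak, on chromosome 20 from 1118500 to 1118787, of rank 2163 and fold enrichment 5.32.

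PSMC3IP, a recombination gene that matched by name, had a control peak on chromosome 17 from 42577668 to 42577971, of rank 1610 and fold enrichment 3.87, and PSME3IP1 had none. Without these 2 genes, the shares with a peak were 20.8%, 10.4% and 33.3% in the same order of lists.

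**Figure D2:**
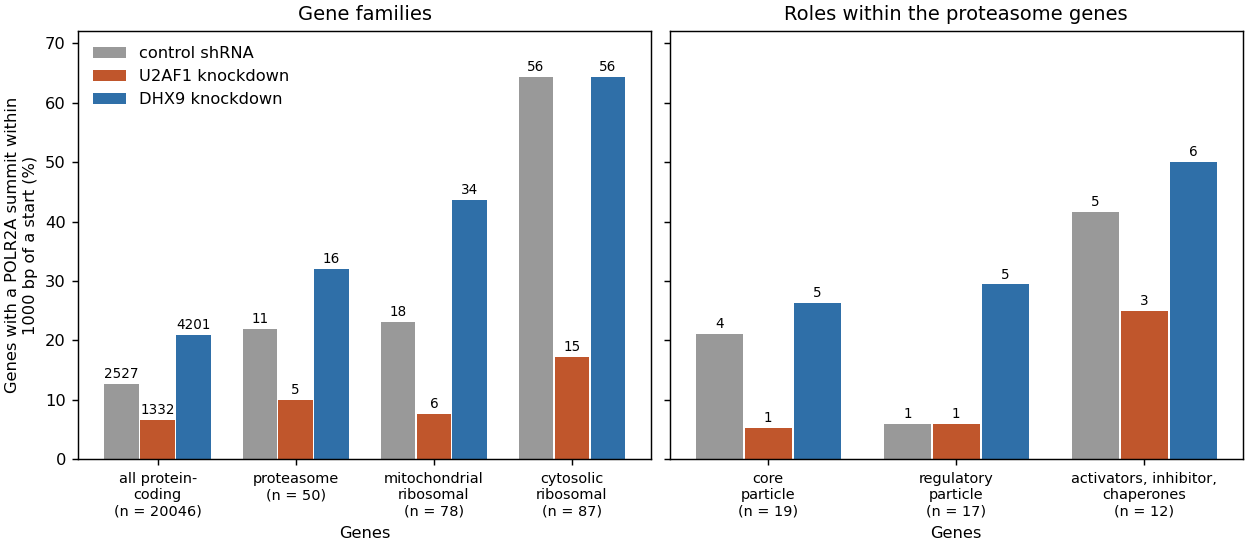
The bars give the share of genes (%) with a POLR2A summit within 1000 bp of a start in each list, for gene families (left) and for the roles within the proteasome genes (right), with the number of genes above each bar and the number in the set under it. There is 1 list per condition, so no error bars are drawn. Proteasome genes stand at 22.0%, 10.0% and 32%, and cytosolic ribosomal protein genes at 64.4%, 17.2% and 64.4%.

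Of the 11 members with a control peak, 4 (36.4%) also had a U2AF1 knockdown peak, close to the 35.4% of all protein-coding genes with a control peak. In the DHX9 knockdown list 9 of the 11 (81.8%) had one, against 75.5%. The members' share in the DHX9 knockdown list was below that of all protein-coding genes under some other settings. Among peaks of −log10 q 5 or more it was 4 of 8 (50.0%), against 68.4%. When each peak was given to the nearest coding gene alone it was 5 of 9 (55.6%), against 72.6%. With lists of equal length it was 3 of 6 (50.0%), against 54.6%. With so few genes, a single gene changes such a share considerably. With windows of 500 and 2000 bp the members' share stayed at 81.8%, above that of all protein-coding genes. At canonical starts alone it was 6 of 8, about equal to that of all protein-coding genes. Counting only a knockdown peak that overlapped the control peak itself, 4 and 8 (72.7%) remained, and PSME3 was the gene lost. In the other direction, 1 of 5 U2AF1 knockdown members (20.0%) and 7 of 16 DHX9 knockdown members (43.8%) had no control peak, against 32.9% and 54.6% of all protein-coding genes. Both comparisons share the control list. Among overlapping pairs of member peaks, summits were a median of 38.5 bp apart between the control and U2AF1 knockdown lists (4 pairs, 12 to 189 bp). The median was 60 bp between the control and DHX9 knockdown lists (8 pairs, 12 to 207 bp) and 28.0 bp between the knockdown lists (5 pairs, 18 to 44 bp).

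The counts were also taken with lists of equal length, a setting that removes peaks by construction. When each list was cut to its 1730 most significant peaks, the length of the shortest list, 6 members had a control peak, 5 a U2AF1 knockdown peak and 6 a DHX9 knockdown peak. These are 12.0%, 10.0% and 12.0%, against 8.05%, 6.64% and 8.44% of all protein-coding genes. The excess of the DHX9 knockdown list over the control list was then 0 genes. Of the 6 control members left, 3 (50.0%) had a peak in each knockdown list, against 44.7% of all protein-coding genes for U2AF1 and 54.6% for DHX9. PSMG1 and PSMG3 were the members left in all 3 lists, and PSMC5 and PSMD7 the regulatory particle genes left in the DHX9 knockdown list.

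The choice of starts mattered for fewer members. At the canonical start of each gene alone, 8 members had a control peak (16.0%, against 11.7% of all protein-coding genes). There were 5 in the U2AF1 knockdown list (10.0%, against 6.11%) and 14 in the DHX9 knockdown list (28.0%, against 19.5%). PSMA1 and PSMG2 left both lists that had them, and PSME3 left the control list.

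**Figure D3:**
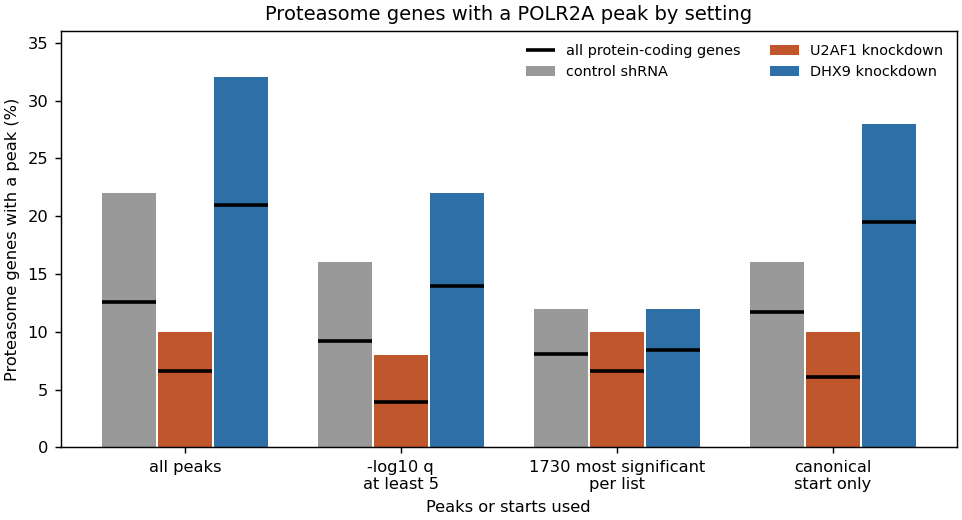
Bars give the share of proteasome genes (%) with a POLR2A peak in each list, using all peaks, peaks of −log10 q 5 or more, the 1730 most significant peaks of each list, or the canonical start only. Black lines give the same share over all protein-coding genes. With lists of equal length the bars are 12.0%, 10.0% and 12.0%, against 22.0%, 10.0% and 32% with all peaks.

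Member peaks were of middling rank. The median position in the list, where 0% is the highest fold enrichment, was 54.8% for control peaks (8.67% to 89.4%). For all protein-coding genes with a peak the median was 45.8%. In the U2AF1 knockdown list it was 42.1% (11.1% to 63.4%), against 41.6%, and in the DHX9 knockdown list 43.3% (3.65% to 91.6%), against 45.5%. PSMG3 in the control list, and PSMG3 and PSME3 in the DHX9 knockdown list, were the members in the highest 10%. The 5 highest members were, after PSMG3, PSMA7, PSMG2, PSMA1 and PSME4 in the control list, PSME4, PSMC5, PSMG1 and PSMB2 in the U2AF1 knockdown list, and PSME3, PSMG1, PSMA4 and PSMD7 in the DHX9 knockdown list.

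Summits lay close to starts. The farthest was at 165 bp for the control (PSME4), 123 bp for U2AF1 knockdown (PSMG3) and 265 bp for DHX9 knockdown (PSMC4). The nearest summits beyond the window were at 5841 bp (PSMB6), 2475 bp (PSME2) and 6075 bp (PSMB6). Within 100 bp of a start lay 8 of 11, 4 of 5 and 13 of 16 summits, against 65.2%, 63.1% and 63.5% of all protein-coding genes with a peak. The median offset was -12.0 bp for the control, 24.0 bp for U2AF1 knockdown and 6.5 bp for DHX9 knockdown, against 18.0, 28.0 and 13.0 bp for all protein-coding genes with a peak. A positive offset is downstream of the start.

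**Figure D4:**
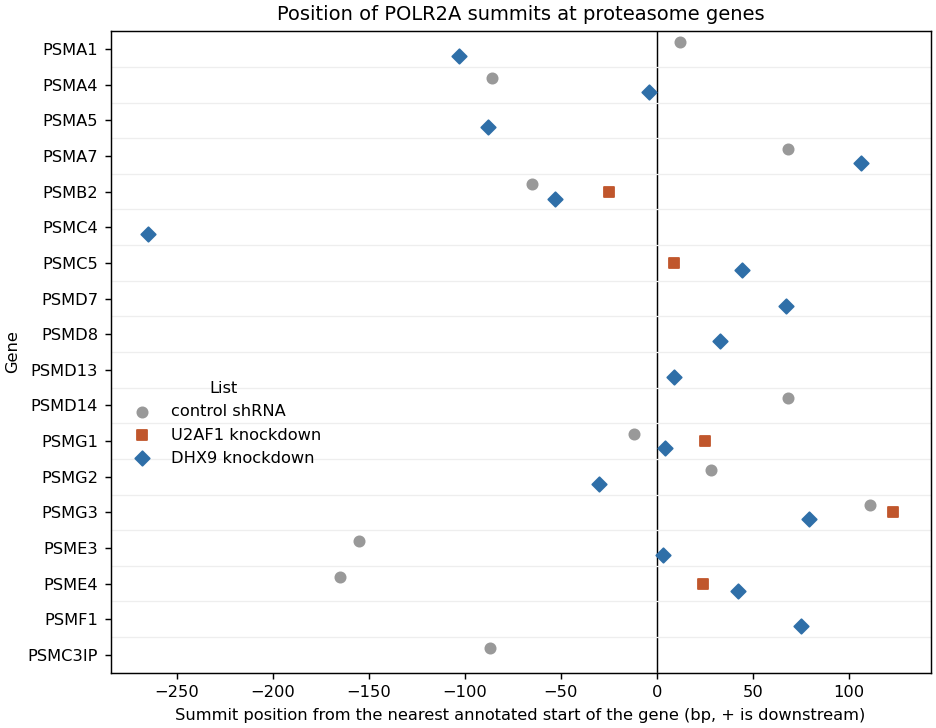
Each symbol is the summit of a member's POLR2A peak, placed by its distance in bp from the nearest annotated start of that gene (positive is downstream), with 1 symbol for each list. All summits lie between -265 and 123 bp, and at PSME4 the control summit at -165 bp stands apart from the knockdown summits at 24 and 42 bp.

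Some members start close to a coding gene on the other strand. The canonical start of 6 of the 18 members with a peak in any list (33.3%) and of 7 of the 32 without (21.9%) had the start of a coding gene on the other strand within 1000 bp upstream. The same held for 21.5% of all protein-coding genes with a peak and 9.71% of those without. A peak in any list need not lie at the canonical start. PSMG2 is among the 6 through CEP76, but its summits lay -44768 and -44910 bp from that start. In the first 500 bp after the canonical start, GC content had a median of 63.9% in members with a peak and 60.7% in members without, against 69.2% and 61.8% of protein-coding genes. GC skew, the excess of G over C on the coding strand as a share of both, is a feature linked to R-loops, the RNA and DNA hybrids this series is about. Its median was 0.091 in members with a peak and 0.105 in members without, against 0.068 and 0.048 in protein-coding genes. PSMA1 and PSMG2 count as members with a peak here, though neither had a peak at its canonical start. GC content there was 59.8% and 52.8%, and skew was 0.01 and -0.0303. PSMC4 had the highest skew of the members with a peak, 0.369, and PSMB6, without a peak, the highest of the family, 0.414.

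RefSeq promoters were found for 44 of the 50 members, all but PSMA7, PSMB1, PSMB6, PSMB7, PSMD4 and PSMG3. In the 250 bases before the start, on both strands, TGACNNNGC, the core of the antioxidant response element through which NFE2L1 and NFE2L2 act on proteasome genes, was in 11 of 44 members (25%) and in 11.5% of 15345 coding promoters. It was in 3 of 16 members with a peak and 8 of 28 without. These promoters are at RefSeq starts, and a member's peak can lie elsewhere. Summits were -123219 and -123352 bp from that start at PSMA1 and 5422 bp at PSMF1. At PSMG2, which holds the motif, they were at -464 and -606 bp. CCAAT, the NF-Y box, was in 20 members (45.5%, against 34.8%), and CCGGAAG, an ETS factor motif, in 10 (22.7%, against 12.0%). GGGCGG, the GC box, was in 28 (63.6%, against 56.7%), and TATAAA, the TATA box, in 5 (11.4%, against 9.23%). AAGATGG, a YY1 motif, was in 2 (4.55%, against 3.32%) and GCGCATGC, the core of the nuclear respiratory factor 1 site, in 1 (2.27%, against 3.71%). Of the 16 members with a peak and the 28 without, CCAAT was in 8 and 12, CCGGAAG in 3 and 7, and GGGCGG in 12 and 16. TATAAA was in 2 and 3, AAGATGG in 1 and 1, and GCGCATGC in 0 and 1. These splits were not tested. Matches can overlap, and 2 GC boxes of PSMG1 do. Such a match is a stretch of letters and not a bound site. Of the printed sequences, PSMB2 held none of the 7 motifs, PSMA4 and PSMC4 held only GC boxes, and PSMA5 held 2 GC boxes and 2 CCAAT boxes.

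Of 28 other genes of the pathway, 7 (25%) had a control peak, 6 (21.4%) a U2AF1 knockdown peak and 12 (42.9%) a DHX9 knockdown peak, against 12.6%, 6.64% and 21.0% of all protein-coding genes. ZFAND5, an activator of the proteasome, and NGLY1, the glycanase that processes NFE2L1, had a peak in every list. ZFAND5 ranked 495 of 2757, 264 of 1730 and 328 of 4443, and NGLY1 ranked 711, 542 and 2568. NFE2L1, the main transcription factor of proteasome genes under proteasome inhibition, had no control peak, a U2AF1 knockdown peak of rank 1003 and a DHX9 knockdown peak of rank 3024. NFE2L2 had only a DHX9 knockdown peak, of rank 3466, and DDI2, the protease that activates NFE2L1, only a U2AF1 knockdown peak, of rank 1225. POMP, the maturation factor of the core, had a control peak of rank 2286 and a DHX9 knockdown peak of rank 3514. AKIRIN2, which takes proteasomes into the nucleus, had only a control peak, of rank 360. The ubiquitin receptor ADRM1 and the lid protein SEM1, subunits without a PSM name, had no peak in any list.

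Other large complexes are given for scale. Mitochondrial ribosomal protein genes had a peak in 18 of 78 cases for the control (23.1%), 6 for U2AF1 knockdown (7.69%) and 34 for DHX9 knockdown (43.6%). Cytosolic ribosomal protein genes had one in 56, 15 and 56 of 87 cases. In the control list the share of proteasome genes, 22.0%, was thus near the first family and below the second. These differences between families were not tested.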

How the data were processed

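The data were 3 peak lists, 1 for each condition, of a series with 6 POLR2A ChIP samples. The 3 input samples entered no value. The submitters' processing notes name Bowtie2 2.4.5, deepTools 3.5.1, MACS2 2.2.7.1 and build hg38, with no role or order. Per the file's column order, the authors deposited for each peak a fold enrichment (a ratio whose background is not stated), −log10 p, −log10 q, a score of 10 times −log10 q rounded down (2 peaks differ), and the summit position. Every sequence named in a list exists in GRCh38, and 0 peaks ran past its end. Pooling of replicates is not given in the sources used here.

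Summits were matched to all transcript starts of protein-coding genes in GENCODE version 44 within 1000 bp with Python 3.11.15 and pandas 2.3.3. A gene with several peaks took its highest. The matching was tested on simulated peaks. Peaks were ranked by fold enrichment within their list. Coordinates count from 1. No test was run, since there is 1 list per condition. All members could be named; rank, fold enrichment and position are given for the 5 highest in each list, those that differ between lists and those nearest to the edge of the window, and members in no list are named. The members, roles and lists were chosen with earlier results of these data known. Values of 1 gene of the pathway list are not reported here.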

Additional observations from a re-analysis of the deposited data

How the results depend on the processing

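The members' share with a peak, the share of control members found in a knockdown list, the median rank and offset, and the difference between core and regulatory particle were recomputed under other settings; no other value was. Of the alternative values, 93 stayed within an interval around the main value and 6 moved beyond it. The interval was the 95% Wilson interval of the share, or 1 SD over members for medians. For the difference between core and regulatory particle it combined the Wilson intervals of both shares. Such intervals run over genes, measure no replicate error and are wide, as 12.8% to 35.2% for the control share. Equal lengths could not change the U2AF1 knockdown list, which was already the shortest. With lists of equal length, 12.0% of members had a control peak and 12.0% a DHX9 knockdown peak, and 50.0% of control members were found in the DHX9 knockdown list (54.6% of all protein-coding genes). That setting removes peaks by construction. Among peaks of −log10 q 5 or more, 50.0% of control members were found there (68.4% of all protein-coding genes), and the median rank position of U2AF1 knockdown members was 61.8%. At canonical starts the median offset in the U2AF1 knockdown list was 91.0 bp. The summits were the same and the start they were measured from changed: PSMC5 went from 9 to 102 bp and PSMG1 from 25 to 91 bp. The cause of the other changes was not tested. The median control offset, -12.0 bp, changed sign to 8.0 bp with equal lengths and 12.0 bp with the nearest coding gene alone. Leaving out the 2 interacting-protein genes was chosen after seeing the data. Windows of 500 and 2000 bp changed no member's peak. No paired analysis was possible because the peak lists do not separate the replicates, and for the same reason no replicate could be left out.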
